A study of Mus musculus with 6 samples.

Results

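The miR-344 family was examined in small extracellular vesicles (sEV) shed by mouse cochlear explants, as every row of the deposited read counts whose name starts with mmu-miR-344. There were 3 such rows of 810, mmu-miR-344-3p, mmu-miR-344b-3p and mmu-miR-344c-3p. The explants were sensory epithelium of ICR mice at postnatal day 3, grown in medium with serum freed of vesicles, and were kept for 48 h with 50 µM cisplatin, a platinum drug that damages hair cells (Cis-sEV, n = 3), or with an equal volume of PBS (Ctrl-sEV, n = 3). Each library held sEV RNA pooled from about 80 explants, and the study calls the libraries of a group biological replicates. The spiral ganglion, which holds the cell bodies of the auditory neurons, had been dissected away, and the tissue left holds hair cells, supporting cells and others, so the cell of origin of a vesicle is not known. The family was taken up because mmu-miR-344-3p differed between the groups in these same libraries, so its values are given as a description without a test. The other members entered by name alone, and the question was whether paralogs and the 5p arm share the gain.

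A miRNA is cut from a hairpin RNA, whose stem gives a 5p and a 3p arm, 1 from each side, and it represses mRNAs that pair with its seed, the bases 2 to 8 from its 5′ end. Members of a family with one seed can act on the same mRNAs, whereas a shift of the 5′ end by a single base changes the seed. The miR-344 family is a rodent family of many gene copies, known mainly from brain, and it lies in a cluster near Ndn, an imprinted gene of the region that corresponds to the human Prader-Willi region.

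The 3 members and, for contrast, the opposite arm and a pair of paralogs are shown 5′ to 3′ with the seed in capitals, so that the groups of shared seeds can be read. Sequences are from RefSeq on GRCm38.p6, and those of the 3 members are identical in the deposited file.
mmu-miR-344-3p: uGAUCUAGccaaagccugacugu
mmu-miR-344c-3p: uGAUCUAGucaaagccugacagu
mmu-miR-344b-3p: cAUUUAGCcaaagccugacugu
mmu-miR-344e-3p: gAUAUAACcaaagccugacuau
mmu-miR-344d-3p: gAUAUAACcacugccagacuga
mmu-miR-344-5p: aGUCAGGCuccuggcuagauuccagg

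mmu-miR-344-3p and mmu-miR-344c-3p share a seed and differ at 2 of 23 bases, C9U and U21A, where positions are counted from 1 at the 5′ end and the base of mmu-miR-344-3p comes first. mmu-miR-344b-3p has the last 18 bases of mmu-miR-344-3p but another 5′ end and so another seed, and the pair are 3 edits apart. No other row of the 810 has the seed of any of the 3. RefSeq lists 13 Mir344 hairpins with 19 mature names, 8 of them 3p and 11 of them 5p. These matched 3 rows of the table, all 3p. The 5p arms, 6 of which have the seed of mmu-miR-344-5p, and 5 of the 3p names have no row in the table used here and so no value. The 3 members with a row are those within 3 edits of mmu-miR-344-3p, and the 3p names with no row are 4 to 11 edits from it. Every row of the table has at least 1 read over the 6 libraries, so a name with no reads would not be listed. No predicted miRNA of the table lies in a Mir344 hairpin.

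The hairpins lie on the minus strand of chromosome 7 of GRCm38, from 61683124 to 62085310, a cluster of 402 kb whose near end is 261 kb from Ndn, the nearest protein-coding gene beyond it. The 4 hairpins that encode the members are neighbours, numbers 7 to 10 of 13 in order of position, and span 149.6 kb. Mir344b (61790519 to 61790581), Mir344c (61837311 to 61837402) and Mir344 (61877770 to 61877864) lie in introns of the long noncoding RNA A230057D06Rik, on the same strand. Mir344-2 (61940027 to 61940106) lies in an intron of another, A330076H08Rik. The mature mmu-miR-344-3p is the same in Mir344 and Mir344-2, so reads from these hairpins cannot be told apart, although the table names the first as its source. The long noncoding RNAs were not measured here.

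**Figure D1:**
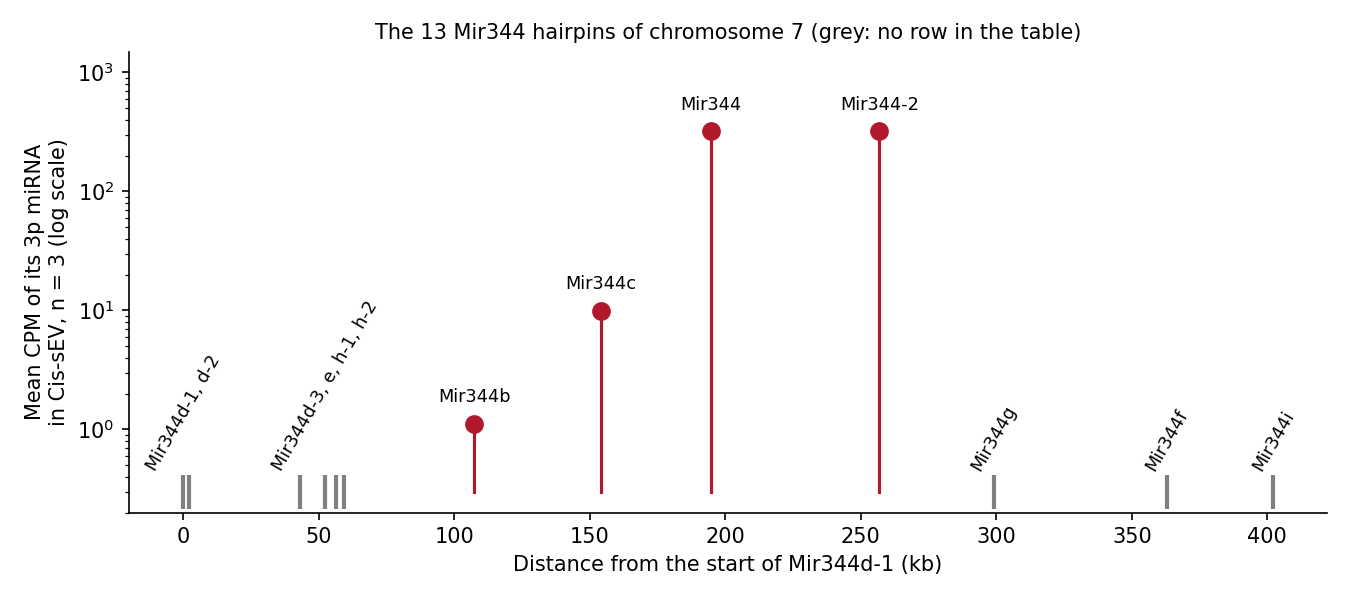
The 13 Mir344 hairpins by distance in kb along chromosome 7, with the mean CPM of their 3p miRNA in Cis-sEV (n = 3, log axis) in red and hairpins whose miRNAs have no row in the table as grey ticks. The 4 red hairpins are adjacent, and mmu-miR-344-3p, at 321 CPM, is drawn at both hairpins that encode it.

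The Cis-sEV libraries held more miRNA reads, 1722359 to 1794175 against 528952 to 718597. The paper reports that miRNA made up more of the small RNA in Cis-sEV. Whether the libraries also differed in sequencing depth was not tested. Levels are given as CPM, the counts scaled by the miRNA reads of their library. A count of 0 was taken to allow 3 reads, which is 1.67 to 1.74 CPM for the Cis-sEV libraries and 4.17 to 5.67 CPM for the Ctrl-sEV ones. This limit covers counting error within a library only. Ctrl-sEV libraries could differ by more than it, as for mmu-miR-467a-5p, with 222, 0 and 2 reads in them. In these pooled samples, more copies of a miRNA per vesicle and more vesicles that carry it cannot be told apart. The 8 miRNAs fixed as markers of the cochlear epithelium, among them the hair cell miRNAs mmu-miR-183-5p, mmu-miR-96-5p and mmu-miR-182-5p, each had reads in both groups. Not all had them evenly, since mmu-miR-205-5p had 1, 0 and 125 reads in the Ctrl-sEV libraries and mmu-miR-141-3p 1, 155 and 116.

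Of the 810 miRNAs of the table, 410 had 0 reads in Ctrl-sEV. All reads of the family were in Cis-sEV, 1766 in all against 0 in Ctrl-sEV, and 96.7% of them belonged to mmu-miR-344-3p. Its reads numbered 683, 502 and 522 in the Cis-sEV libraries and 0 in each Ctrl-sEV library. These are 381, 291 and 291 CPM, 321 ± 52.0 CPM (SD, n = 3), rank 122 of 810 in Cis-sEV. Replicate 1 was the highest of the 3, and all lay far above the level that 0 reads allow in a Ctrl-sEV library. With 3 reads over the group in place of 0 and with edgeR's TMM factors, the pooled Cis-sEV level of mmu-miR-344-3p was 153-fold the Ctrl-sEV level. This ratio, called its lower bound here, allows for the zeros in Ctrl-sEV only. It leaves out counting error in Cis-sEV and the spread between libraries. Without Ctrl-sEV replicate 2, which had the most miRNA reads of its group, this bound was 85.0-fold. At the share it had in Cis-sEV, the Ctrl-sEV libraries would have held 174, 231 and 170 of its reads.

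mmu-miR-344c-3p, the paralog with the same seed, had 23, 11 and 19 reads in Cis-sEV and 0 in each Ctrl-sEV library. Its level was 12.8, 6.39 and 10.6 CPM, 9.94 ± 3.28 CPM (SD, n = 3), and each of these lay above the level of 3 reads in every Ctrl-sEV library. The lowest, 6.39 CPM in replicate 2, was close to the highest such limit, 5.67 CPM. With TMM factors it was 5.82 CPM and fell below the level of 3 reads in Ctrl-sEV replicates 1 and 3. The lower bound of mmu-miR-344c-3p, computed as above, was 4.75-fold over the group and 2.64-fold without Ctrl-sEV replicate 2. The edgeR fit with no minimum of reads and DESeq2, given below, did not call it. At its Cis-sEV share, 5.39, 7.18 and 5.28 reads would have been counted in the Ctrl-sEV libraries. mmu-miR-344b-3p, with another seed, had 0, 0 and 6 reads in Cis-sEV and 0 in each Ctrl-sEV library. Its 3.34 CPM in Cis-sEV replicate 3 was below what 0 reads allow in any Ctrl-sEV library, and a difference between the groups was not detectable with this number of miRNA reads.

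**Figure D2:**
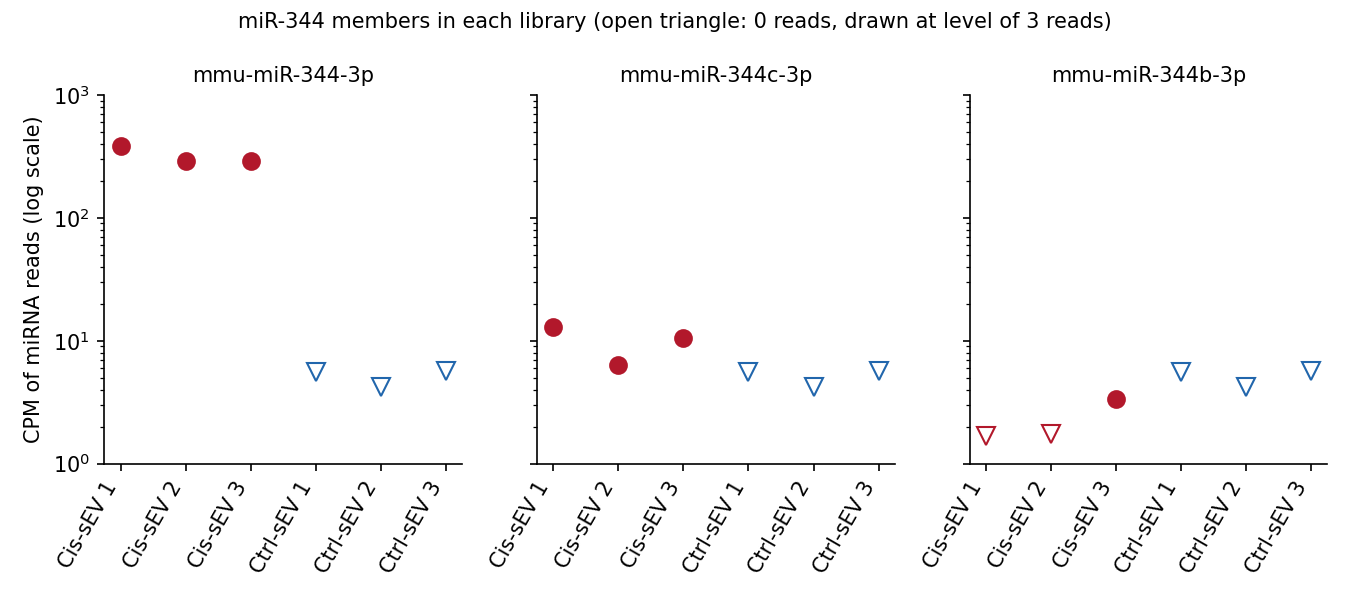
CPM without TMM factors (log axis) of the 3 members in each of the 3 Cis-sEV (red) and 3 Ctrl-sEV (blue) libraries. Filled points are libraries with reads and open triangles are libraries with 0 reads, drawn at the level of 3 reads: mmu-miR-344-3p stands far above the Ctrl-sEV triangles, mmu-miR-344c-3p just above them and the 1 point of mmu-miR-344b-3p below them.

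Reads in all 3 Cis-sEV libraries and in no Ctrl-sEV library were found for 2 of the 3 members, mmu-miR-344-3p and mmu-miR-344c-3p. Over the whole table this held for 100 of 810 miRNAs, 12.3%, and every Cis-sEV library lay above every Ctrl-sEV library in CPM for 215, 26.5%. Since the family was taken up for this contrast, nothing is read from that count. The groups were compared by edgeR's quasi-likelihood test with Benjamini-Hochberg adjustment, and a call required the study's limits, adjusted p up to 0.05 and a log2 fold change of 1 or more in size. Of 353 miRNAs with enough reads, 83 were called higher (23.5%) and 6.52% were called lower. mmu-miR-344-3p was the 1 member that entered, through its Cis-sEV reads alone, and it is among the 83. Since it was chosen on this contrast, its p is not given and nothing is read from its call. The call was absent without Cis-sEV replicate 1, its highest library, where its lower bound was 137-fold, and, with no minimum of reads, without Cis-sEV replicate 3, where the bound was 164-fold.

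With no minimum of reads, all 810 miRNAs entered the edgeR fit and 7.65% were called higher. There mmu-miR-344c-3p was not called, with an adjusted p of 0.0708 (unadjusted 0.0107), and mmu-miR-344b-3p had an adjusted p of 0.489. By DESeq2, which called 16.9% higher, the adjusted p of mmu-miR-344c-3p was 0.0658. By limma-voom with no minimum, which called 12.7% higher, its adjusted p was 0.0409 and it was called. With no minimum, leaving out a library gave adjusted p values from edgeR of 0.0770 to 0.218, and it was called in none of these fits. It passed the minimum of reads only when a Ctrl-sEV library was left out, at 0.0333 to 0.0490. It met that minimum through its Cis-sEV reads alone, so those values are not taken as support for a difference.

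The level of a miRNA in Cis-sEV went with whether it was seen in Ctrl-sEV. Of the 39 other miRNAs within 1.5-fold of mmu-miR-344-3p in Cis-sEV CPM, 2 had no Ctrl-sEV reads (5.13%), mmu-miR-153-3p and mmu-miR-100-3p, and 21 were found in each Ctrl-sEV library. Of the 73 within 1.5-fold of mmu-miR-344c-3p, 36 had no Ctrl-sEV reads (49.3%) and 7 were found in each Ctrl-sEV library. Of the 108 within 1.5-fold of mmu-miR-344b-3p, 99 had 0 reads there (91.7%). The zeros of mmu-miR-344c-3p and mmu-miR-344b-3p were thus shared by many miRNAs of their level. Nothing is read from the share beside mmu-miR-344-3p, which was chosen for its difference between the groups.

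**Figure D3:**
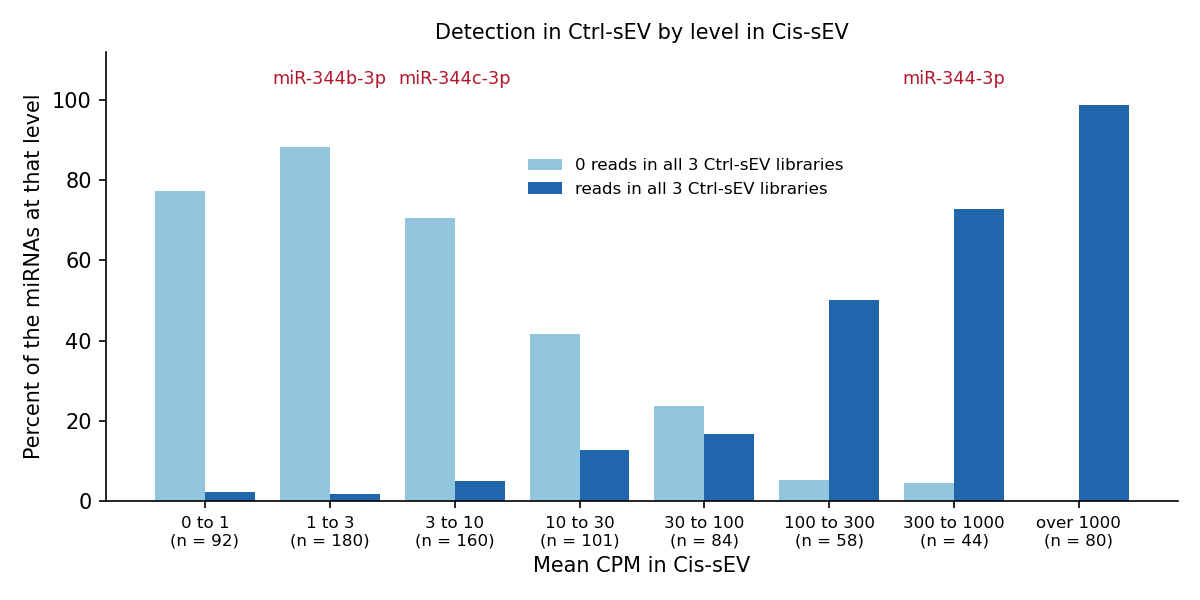
Percent of the miRNAs (bars) at each range of mean CPM in Cis-sEV that had 0 reads in all 3 Ctrl-sEV libraries (light) or reads in all 3 (dark), with the number of miRNAs under each range and the members named above theirs. Zeros in Ctrl-sEV were 77.2% at 0 to 1 CPM. They fell from 88.3% at 1 to 3 CPM, the range of mmu-miR-344b-3p, to 70.6% at 3 to 10 CPM and 4.55% at 300 to 1000 CPM, the range of mmu-miR-344-3p.

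The shares of the members in the family's reads were compared between the Cis-sEV libraries. mmu-miR-344c-3p took 3.26% of the family's reads in replicate 1 (95% Wilson interval 2.18 to 4.84%), 2.14% in replicate 2 (1.20 to 3.80%) and 3.47% in replicate 3 (2.23 to 5.36%), intervals that overlap. mmu-miR-344b-3p took 1.10% in replicate 3 (0.504 to 2.37%), and 0 of 706 and 0 of 513 reads in the other libraries, which allow shares of up to 0.425% and 0.585% by the limit of 3 reads. The upper Wilson ends of these zeros, 0.541% and 0.743%, reach into the interval of replicate 3, whereas the limit of 3 reads for replicate 1 does not. These intervals and limits cover counting error only, since copies made by PCR were not told apart. The coefficient of variation of CPM over the Cis-sEV libraries was 16.2% for mmu-miR-344-3p, and its median over the 39 miRNAs of like level was 18.0%. How reads with mismatches were assigned among near-identical members is not given in the sources used here, and the part of such reads in the counts of mmu-miR-344c-3p and mmu-miR-344b-3p was not tested.

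The 5p arm of Mir344 and Mir344-2 has no row, so the share of each arm could not be computed for any member. Arms were paired by the hairpins of the table and of RefSeq. In the table, 192 miRBase 3p rows with Cis-sEV reads on either arm had a row for a 5p arm of a hairpin that encodes them, with a median 3p share of 24.4% of the Cis-sEV reads of both arms, and 44 of them had a share over 90%. Of the 38 miRBase miRNAs with Cis-sEV reads within 1.5-fold of those of mmu-miR-344-3p, 11 had no row for the opposite arm (28.9%). A missing opposite arm at this number of reads was thus found for other miRNAs too.

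The seed of mmu-miR-344d-3p and mmu-miR-344e-3p, the paralogs with no row, is carried in this table by a miRNA of the Dlk1-Dio3 cluster on chromosome 12, mmu-miR-410-3p, named here after its values were seen.
mmu-miR-410-3p: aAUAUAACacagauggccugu
It had 123, 134 and 139 CPM in Cis-sEV and 128, 296 and 650 CPM in Ctrl-sEV. The groups overlapped, since Ctrl-sEV replicate 1 lay among the Cis-sEV libraries, and its log2 fold change of -1.74 (standard error 0.69) did not pass the test (adjusted p = 0.0963 from edgeR). The seed of mmu-miR-344g-3p, also with no row, is carried by mmu-miR-7070-3p of chromosome 8, likewise named after its values were seen. It had 0, 0 and 6 reads in Cis-sEV and 0 in each Ctrl-sEV library, and it had too few reads to enter the test.

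The 5 miRNAs nearest to mmu-miR-344-3p were ranked by Euclidean distance over log2(CPM + 1) of the 6 libraries, where the median distance over 809 miRNAs was 12.8. They were mmu-miR-153-3p, a miRNA of neurons, at a distance of 0.759, mmu-miR-100-3p at 0.820, a predicted miRNA that the table numbers miR220-5p at 1.57, mmu-miR-190b-5p at 2.03 and mmu-miR-34c-3p, of the family that p53 induces, at 2.20. They come from chromosomes 12, 9, 1, 3 and 9, and none from the chromosome of the family. mmu-miR-153-3p had 866, 431 and 334 reads in Cis-sEV and mmu-miR-100-3p 451, 389 and 388, both with 0 in Ctrl-sEV. The predicted miRNA and mmu-miR-190b-5p each had 1 read in a single Ctrl-sEV library. The ranking used these same 6 libraries, so the near absence of Ctrl-sEV reads in the nearest miRNAs follows from it. By the same measure mmu-miR-344c-3p was at rank 128, at a distance of 8.53, and mmu-miR-344b-3p at rank 573.

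**Figure D4:**
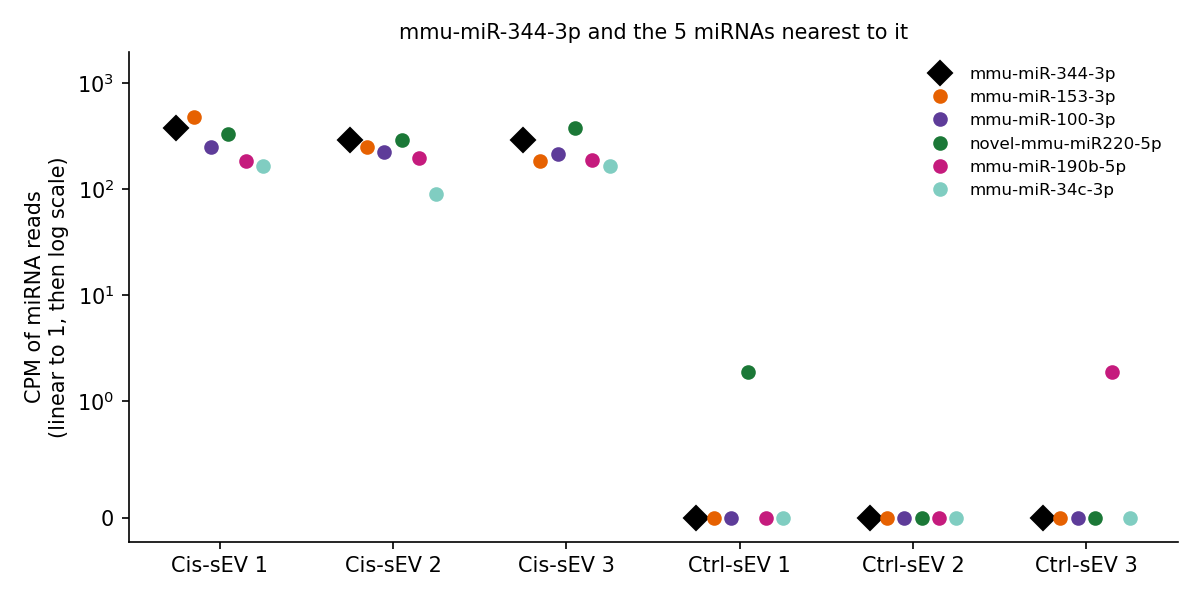
CPM (axis linear to 1, then log) of mmu-miR-344-3p (black diamonds) and the 5 nearest miRNAs (circles) in each of the 6 libraries. All 6 miRNAs had reads in each Cis-sEV library, and in Ctrl-sEV they lie at 0 but for 1 read each of the predicted miRNA and mmu-miR-190b-5p. The 5 were ranked on these same values, so their likeness follows from the ranking.

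Lists fixed for comparison were described by their counts beside the same over all tested miRNAs, of which 23.5% were called higher with a median log2 fold change of 0.44. Of 16 neuron-enriched miRNAs, 11 were tested, 5 were called higher and 0 lower, with a median of 1.64. These were mmu-miR-124-3p, mmu-miR-129-2-3p, mmu-miR-153-3p, mmu-miR-212-3p and mmu-miR-218-5p. All but mmu-miR-218-5p had at most 1 read over the Ctrl-sEV libraries. They met the minimum of reads through Cis-sEV alone, so neither their calls nor the median is read as a shift of the list. Tested members not called had log2 fold changes of -0.53 (mmu-miR-129-5p), -0.16 (mmu-miR-383-5p), 0.15 (mmu-miR-9-5p), 1.06 (mmu-miR-138-5p), 1.64 (mmu-miR-128-3p) and 2.37 (mmu-miR-9-3p). The neuron-enriched list summed to 15809 to 16455 CPM in the Cis-sEV libraries and 4633 to 6509 CPM in the Ctrl-sEV libraries, and its part in the values of the miR-344 family was not tested. Most of this sum was mmu-miR-218-5p, with 12516 to 13060 CPM in Cis-sEV and 2858 to 4861 CPM in Ctrl-sEV. The other 14 with a row summed to 3133 to 3395 CPM and 1293 to 2060 CPM. mmu-miR-137-3p and mmu-miR-219a-5p, also on the list, had 0 reads in Ctrl-sEV and at most 4 in a Cis-sEV library. Of the 32 miRNAs of the miR-297, miR-466, miR-467 and miR-669 families, a rodent cluster of many copies like that of miR-344, 13 were tested, 5 were called higher and 1 lower, with a median of 0.60. The 5 called higher also had at most 1 read each over the Ctrl-sEV libraries and met the minimum through Cis-sEV alone. Neither their calls nor the median of these families is read as a shift. Without Cis-sEV replicate 1, the neuron-enriched list had 3 called higher and the rodent families 2. The latter had 2 when Cis-sEV replicate 2 was left out, 3 with replicate 3 of that group left out and 8 when Ctrl-sEV replicate 1 was. Of 5 blood miRNAs, 3 were tested, 0 were called higher and 2 lower. Of the 8 miRNAs of the cochlear epithelium, 8 were tested, 3 were called higher in Cis-sEV (mmu-miR-96-5p, mmu-miR-200a-3p and mmu-miR-200b-3p) and 0 lower, with a median of 0.74. Their list summed to 69621 to 90710 CPM in the Cis-sEV libraries and 59151 to 60928 CPM in the Ctrl-sEV libraries, and mmu-miR-96-5p had 7279 to 23793 CPM against 2144 to 3471 CPM. Those not called had log2 fold changes of -0.49 (mmu-miR-183-5p), 0.04 (mmu-miR-205-5p), 0.18 (mmu-miR-182-5p), 0.28 (mmu-miR-200c-3p) and 2.54 (mmu-miR-141-3p). mmu-miR-183-5p, the most abundant of the list, had 35163 to 41155 CPM in Cis-sEV and 42046 to 43092 CPM in Ctrl-sEV. The part of these tissue miRNAs in the values of the family was not tested.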

How the data were processed

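The authors isolated RNA of 18 to 30 nt from sEV, sequenced it on the DNBSEQ platform, aligned reads to GRCm38.p6 with Bowtie2 and annotated them with AASRA and cmsearch, miRBase first; versions were not given in the sources used here. The deposited values are raw read counts per mature miRNA, with no normalization. The deposited group means, a signal in reads that the authors averaged, were not used, and 0 columns of libraries were left out.

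Groups were those of the sample titles, and whether replicates came from separate litters is not stated, so p-values measure the spread between these samples only. Counts were tested with edgeR 4.0.16 (quasi-likelihood, TMM, filterByExpr) in R 4.3.3. The filter asked for 15 reads in all and for the CPM that 10 reads make in a library with the median number of miRNA reads. That CPM had to be reached in as many libraries as the smaller group held. mmu-miR-344c-3p, with 11 reads or more in each Cis-sEV library, did not pass it when all libraries were kept. Alternatives used DESeq2 1.42.0, limma 3.58.1, other scalings, no minimum, replicate numbers as a block and each library left out. Python 3.11.15 was used for the rest. Hosts and neighbours are from GENCODE release M21 (GRCm38), sequences from RefSeq on GRCm38.p6. Named miRNAs were all family rows, rows that share a member's seed, predicted miRNAs inside a Mir344 hairpin and the 5 nearest to mmu-miR-344-3p, with members of the comparison lists. mmu-miR-410-3p and mmu-miR-7070-3p, which have seeds of paralogs with no row, were named after their values were seen. The members and lists were chosen with earlier results of these data known.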

Additional observations from a re-analysis of the deposited data

How the results depend on the processing

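The 1 member called higher was mmu-miR-344-3p, chosen for this difference, so its count under other settings is given without a reading. It was 0 with the replicate block and 2, with mmu-miR-344c-3p, with limma-voom and no minimum of reads. With a library left out it ran from 0 to 2 with a minimum and from 0 to 1 without. Same-numbered libraries did not deviate together (correlations of -0.0486, -0.175 and -0.0159 over 353 miRNAs), so the numbers were not taken to pair them, and the block gave 1 for the neuron-enriched and 0 for the rodent list, where 5 each were called higher without it. With a library left out these lists had 3 to 6 and 2 to 8 called higher. The lower bound of mmu-miR-344-3p was 191.6-fold on total miRNA reads and 85.0 to 164-fold with a library left out, that of mmu-miR-344c-3p 2.64 to 5.49-fold. The median 3p share of hairpins was 20.0 to 25.0% with a library left out. The cause of these moves was not tested, except that leaving out a Ctrl-sEV library raises the level of 3 reads. At 10 reads 2 members were detected in place of 3. A pseudocount of 5 kept 4 of the 5 nearest miRNAs. Combinations with no minimum, the left-out libraries for bounds and lists and the scaling of the bounds were chosen after seeing the data.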
